A study of Rattus norvegicus with 18 samples.

Results

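The NuRD complex and the paralogs of CHD5 were followed in primary rat cortical neurons in which CHD5 had been depleted. The genes taken were Chd3, Chd4, Mta1, Mta2, Mta3, Mbd2, Mbd3, Hdac1, Hdac2 and Rbbp4, matched to the gene symbols of the array without regard to case and without the endings for predicted or mapped genes. Of these 10 genes, 8 had a probe, out of 21563 genes on the array. Mbd2 and Rbbp4 had no probe under their symbol or their Entrez gene number, and neither did Chd5, so the depletion of Chd5 mRNA cannot be checked on these arrays. The neurons came from cortex of embryonic rats and were infected the day after plating with a lentivirus made in the pLKO.1 vector. The CHD5 shRNA cultures received an shRNA against CHD5, and the control cultures received a scrambled shRNA in the same vector, so both arms carry lentivirus. A single CHD5 lentivirus was used for the arrays, so on them effects of its hairpin sequence and of the loss of CHD5 cannot be told apart. The study retested selected genes in other samples, also with a different shRNA. It shows by immunoblot that shRNA sequences against CHD5 lowered the CHD5 protein of such neurons, and does not say whether the array cultures were blotted. It also reports, without showing the data, that the knockdown lowered CHD5 mRNA and left CHD3 and CHD4 unaffected. RNA was taken at days 5, 9 and 12 from 3 replicates of each arm (18 arrays in 6 groups of 3). The labels give no animal, plating or virus batch for a replicate, so p-values measure only the spread between these samples, which may be technical.

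NuRD couples an ATPase that moves nucleosomes to histone deacetylases in a single complex. CHD3, CHD4 and CHD5 are its alternative ATPases, the MTA proteins form a scaffold that binds the deacetylases HDAC1 and HDAC2, RBBP4 and RBBP7 bind histones, MBD2 or MBD3 joins the complex as its methyl-CpG-binding-domain subunit, and GATAD2A and GATAD2B link that subunit to the ATPase. CHD5 is the neuronal member of the ATPase group, and in developing cortex the subunits are known to be exchanged as progenitors become neurons. The comparison therefore addressed whether the partners and paralogs of CHD5 were higher or lower when CHD5 was depleted, and how they moved as the cultures aged.

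Each gene was read by a single 50-base probe, and the probes of related genes share little sequence. Chd3 lay on chromosome 10, Chd4 on chromosome 4, Mta1 and Mta3 on chromosome 6, Mta2 on chromosome 1, Mbd3 on chromosome 7, Hdac1 on chromosome 5 and Hdac2 on chromosome 20, in a genome build that is not given in the sources used here. The longest run of identical bases was 4 between the Chd3 and Chd4 probes, 4 between the Hdac1 and Hdac2 probes, and 4 or 5 between pairs of Mta probes. Probes were compared only with each other, not with transcripts of a paralog. Whether a probe also binds the mRNA of a paralog was therefore not tested. The following stretches of the Chd3 and Chd4 probes are given with the shared run in capitals.
Chd3: CTGTgctggtgtgaagaggtctgggtggga
Chd4: cagctacctCTGTtggcacctttttaatac
The file placed the Hdac2 probe at chr20:41183461-41185356 on the plus strand and the Mbd3 probe at chr7:7497489-7498136 on the plus strand, each in 2 blocks, so both read across a splice junction and match spliced mRNA. They are shown whole, with the bases beyond the junction in capitals, because both genes fell from day 5 to day 12 in control cultures.
Hdac2: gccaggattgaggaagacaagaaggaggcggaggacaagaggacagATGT
Mbd3: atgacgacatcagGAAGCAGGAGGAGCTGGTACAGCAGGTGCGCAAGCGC
Hdac1 had 3 probes under its symbol. The probe used lay at chr5:148672718-148672767 on the minus strand and was detected on 18 of 18 arrays. The other 2 lay on chromosome 9, were detected on 0 of 18 arrays, and by their Entrez number belong to Hdac1l in RefSeq (GRCr8). The last 30 bases of the chromosome 5 probe and of the nearer chromosome 9 probe are shown because they end in the same 18 bases, in capitals.
Hdac1 on chromosome 5: tcagcagggggcGACTGTGTCTTCTGGGGC
Hdac1 on chromosome 9: ttcagcaggggtGACTGTGTCTTCTGGGGC
The file placed only 11 of the 50 bases of the Mta1 probe on the genome, and the RefSeq table held no match for the Entrez number of Mta3.

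The arrays gave a fluorescence intensity for each of 22523 probes, of which 11079 were kept because they were detected on at least 1 array (detection p at or below 0.02). All 8 genes were detected on all 18 arrays. Levels are given as normalized log2 signals, in which a difference of 1 is a doubling, and levels of different probes are not comparable with each other. Replicate b of the day 9 controls, called the day 9 control b array here, stood apart, with a mean signal of 135 against 400.2 to 789 on the other 17 arrays, 7047 detected probes against 8360 to 9931, and a narrower spread of log2 signals (SD 1.11 against 1.72 to 2.02). For the 8 genes and the NuRD subunits named below, printed values that use day 9 controls are given without it too where a call, a direction or the size by over 1.5 times depended on it.

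The ATPase paralogs did not rise by an amount that passed the test at any day. Chd4, the broadly expressed ATPase of NuRD, lay in the day 9 control cultures at 11.16, 11.21 and 11.26 and in the day 9 CHD5 shRNA cultures at 10.96, 10.90 and 10.76. The groups did not overlap, and all 3 CHD5 shRNA arrays were lower. The difference was -0.34 ± 0.12 (SE, n = 3 and 3), or 20.9% less with a 95% interval from 34.0% less to 5.12% less, and its adjusted p was 0.123 by limma with Benjamini-Hochberg adjustment over 11079 probes. Leaving out the day 9 control b array gave -0.34 with an adjusted p of 0.102. Over 31 alternatives of the processing the difference kept its sign and ran from -0.39 to -0.07. The adjusted p ran from 0.0564 to 0.926. At day 5 the Chd4 levels were 10.92, 11.20 and 11.02 in control and 10.65, 11.06 and 11.15 in CHD5 shRNA cultures, and at day 12 they were 11.13, 11.42 and 11.11 against 11.13, 11.04 and 11.02. The groups overlapped on both days.

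Chd3, the other widely expressed ATPase of the group, lay close together in both arms. At day 5 the control levels were 8.81, 8.51 and 8.53 and the CHD5 shRNA levels were 8.47, 8.59 and 8.42. At day 9 they were 8.12, 7.65 and 7.77 in control and 7.86, 7.73 and 8.06 in CHD5 shRNA cultures, and at day 12 they were 8.05, 8.11 and 8.0 against 8.26, 8.28 and 8.09. The arms overlapped on every day. The 95% intervals of the difference ran from 23.1% less to 10.1% more at day 5, from 14.5% less to 22.5% more at day 9, and from 6.68% less to 33.6% more at day 12. The day 9 difference was 0.03, and -0.06 with the day 9 control b array left out. A p that misses the limit does not show that Chd3 was equal in the arms.

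**Figure D1:**
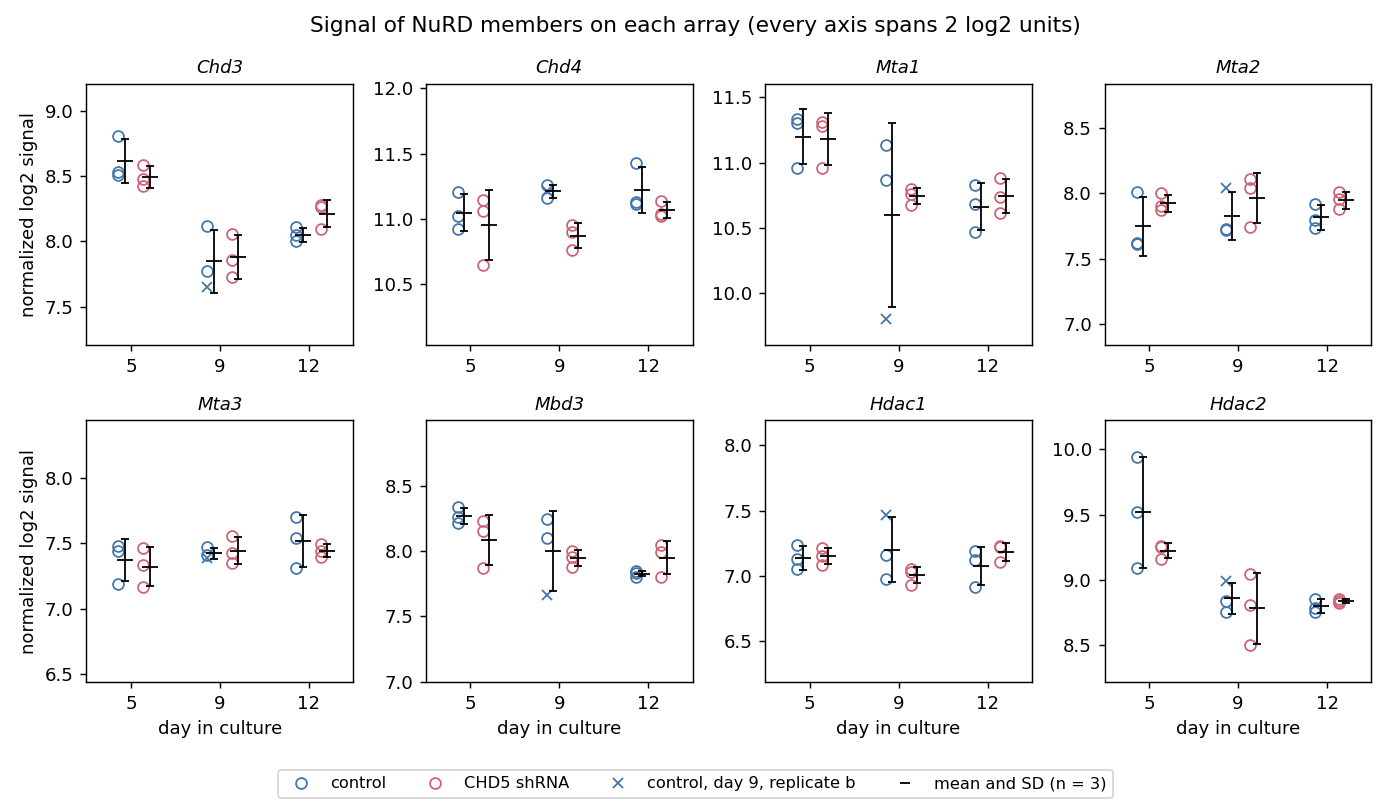
Normalized log2 signal of each of the 8 measured genes (y axis, 2 log2 units in every panel) at days 5, 9 and 12 (x axis), with control arrays in blue, CHD5 shRNA arrays in red, the apart-standing day 9 control array as a cross, and the mean and SD of 3 arrays in black. Chd3 and Hdac2 sit higher at day 5 than later in both arms, and with all arrays only Chd4 at day 9 shows arms that do not overlap. The day 9 arms of Mta1, Mta2 and Mbd3 overlap only through the cross.

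The deacetylases and the remaining subunits were not called after CHD5 shRNA either. Of the 8 genes, 0 passed the adjusted p limit of 0.05 at day 5, where 0.171% of all kept probes did. The counts were 0 of 8 at day 9, against 5.89% of all kept probes, and 0 of 8 at day 12, against 5.47%. At an unadjusted p under 0.05 limma counted 0, 1 and 0 genes at days 5, 9 and 12, the 1 being Chd4, where 5.66%, 20.2% and 16% of all kept probes had such a p. Arms that did not overlap were seen for 0, 1 and 0 genes, where 11.0%, 20.6% and 38.2% of all kept probes did not overlap. The counts of called genes stayed 0 of 8 at each day when the day 9 control b array was left out, while 1.49%, 10.8% and 13.3% of 10891 kept probes were called. Limma then counted 0, 2 and 0 genes at an unadjusted p under 0.05, the 2 being Chd4 and Mbd3. The day 9 arms of Mta1, Mta2 and Mbd3 overlapped only through that array. For these values without the array, the share of all kept probes was not counted. The median difference over the 8 genes was -0.07, -0.02 and 0.10 at the 3 days, against 0.01, -0.02 and 0.01 over all kept probes. The median size of the difference, without its sign, was 0.11 at each day for the 8 genes and 0.08, 0.15 and 0.11 for all kept probes.

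Hdac2, the deacetylase that is abundant in neurons, had the largest difference at day 5. Its levels were 9.94, 9.52 and 9.09 in control and 9.16, 9.26 and 9.25 in CHD5 shRNA cultures, so the widely spread control arrays enclosed the treated ones. The difference was -0.29 ± 0.16 (SE), with an adjusted p of 0.967. It was -0.08 at day 9 (-0.01 with the day 9 control b array left out) and 0.04 at day 12, where the levels were 8.75, 8.86 and 8.79 against 8.86, 8.82 and 8.84. Hdac1, its close relative, differed by 0.01, -0.19 and 0.11 at the 3 days, and the day 9 value was -0.06 once the day 9 control b array was left out.

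The MTA scaffold proteins differed by between -0.07 and 0.18 over the 3 days. Mta2 was higher in the mean of the CHD5 shRNA arrays at every day, by 0.18, 0.14 and 0.13 (SE 0.12), with overlapping arms and adjusted p of 0.999, 0.565 and 0.765. With the day 9 control b array left out, the day 9 value was 0.25 (adjusted p = 0.190). Each day has its own control and CHD5 shRNA arrays. Mta3 differed by -0.05, 0.02 and -0.07, and the day 9 value was 0.0034 with that array left out. Mta1 differed by -0.02, 0.14 and 0.08, with the widest error of the 8 genes (SE 0.23), since its day 9 control levels were 11.13, 9.80 and 10.87. The 9.80 came from replicate b, and without that array the day 9 difference was -0.26 with an adjusted p of 0.230. Mbd3, which in NuRD takes the place of MBD2, differed by -0.18, -0.06 and 0.12. Its day 9 value was -0.23 with the same array left out (adjusted p = 0.168).

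**Figure D2:**
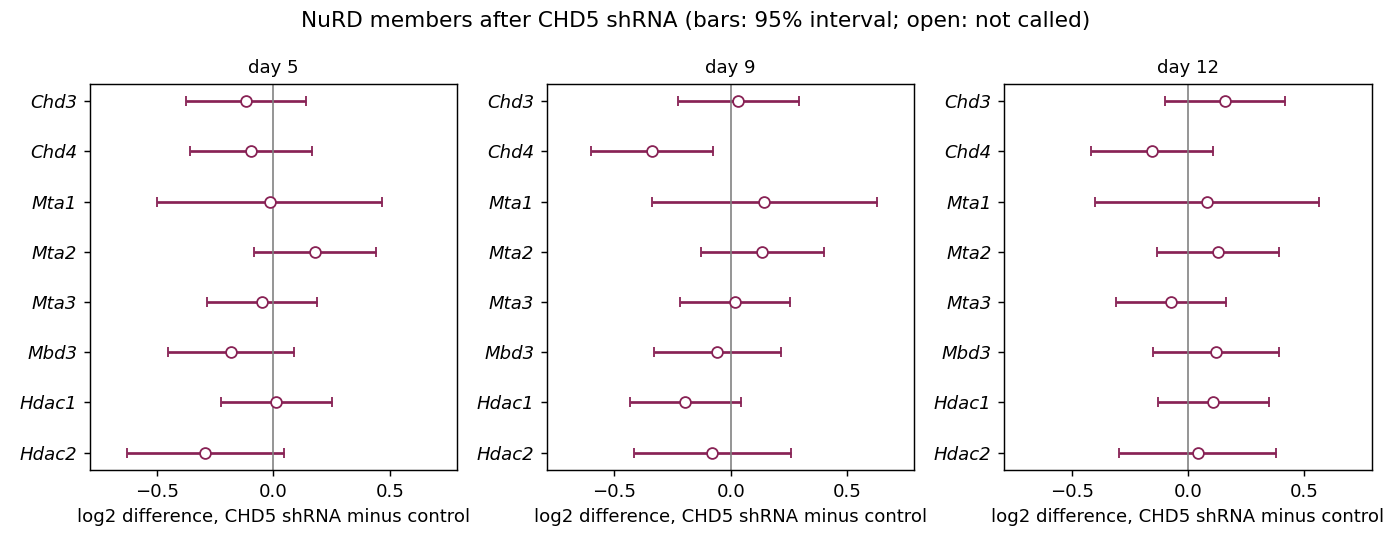
Difference in normalized log2 signal, CHD5 shRNA minus control (x axis), for each of the 8 genes (y axis) at days 5, 9 and 12, with bars for the 95% interval of limma and open points for genes that were not called. Every point is open, and only the interval of Chd4 at day 9 lies off 0.

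The difference between the arms did not change detectably from day to day. The tests of the change from day 5 to 9, from 9 to 12 and from 5 to 12 called 0 of 8 genes each, where they called 0%, 0% and 0.153% of all kept probes. The largest change among the 8 genes was that of Hdac2 from day 5 to day 12, 0.34 ± 0.23 (SE), with an adjusted p of 0.999. Limma counted 0 genes at an unadjusted p under 0.05 in each of these tests, where 7.30%, 2.36% and 6.75% of all kept probes had one. With the day 9 control b array left out 0 of 8 genes were called in each, and limma counted 0, 1 and 1 at an unadjusted p under 0.05.

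Chd3 and Hdac2 fell as the control cultures aged, and these changes passed the test. In control cultures Chd3 fell from day 5 to day 9 by 0.77 on the log2 scale (SE 0.12, 41.2% less, adjusted p = 0.00027), and all 3 arrays of day 9 were below those of day 5. Hdac2 fell over the same days by 0.66 (SE 0.16, 36.6% less, adjusted p = 0.0073), also without overlap. These were the 2 genes of 8 that were called, both lower, where 22.0% of all kept probes were called and 12.8% were called lower. Arrays of the days did not overlap for 2 of the 8 genes, where 25.7% of all kept probes did not, and limma counted 3 genes at an unadjusted p under 0.05, where 39.1% of all kept probes had one. Leaving out the day 9 control b array gave -0.68 for Chd3 (adjusted p = 0.00032) and -0.74 for Hdac2 (adjusted p = 0.0035). With only the 6 arrays of these 2 groups in the fit, neither passed, with an adjusted p of 0.0672 for Chd3 and 0.178 for Hdac2. Hdac2 also lost its call with quantile normalization (-0.43, adjusted p = 0.113), with neqc (-0.49, adjusted p = 0.134) and with array weights (-0.66, adjusted p = 0.0786).

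From day 5 to day 12 in control cultures, a comparison that shares its day 5 arrays with the one before, 3 of the 8 genes were called, all lower, where 23.6% of all kept probes were called and 12.5% were called lower. Chd3 fell by 0.56 (SE 0.12, adjusted p = 0.0025) and Hdac2 by 0.72 (SE 0.16, adjusted p = 0.0028). Mbd3 went from 8.21, 8.26 and 8.34 at day 5 to 7.80, 7.83 and 7.85 at day 12, a fall of 0.44 (SE 0.13, 26.3% less, adjusted p = 0.0181). All day 12 arrays of these genes lay below all day 5 arrays. The call of Mbd3 was lost when day 12 control a (adjusted p = 0.0582) or day 5 control c (adjusted p = 0.0546) was left out, and without the filter on detection (adjusted p = 0.117).

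Mta1 had a difference of about the same size that did not pass, -0.60 from day 5 to 9 (adjusted p = 0.0694) and -0.54 from day 5 to 12 (adjusted p = 0.104). The day 9 value rests on the day 9 control b array, and without it was -0.20 (adjusted p = 0.342). Mta1 levels were 11.33, 11.31 and 10.96 at day 5 and 10.47, 10.83 and 10.68 at day 12 and did not overlap. With the day 9 control b array left out, whose spread enters the shared error, the difference from day 5 to 12 was -0.55 and passed (adjusted p = 0.0015). Arrays of the days did not overlap for 4 of the 8 genes, where 44.3% of all kept probes did not, and limma counted 4 genes at an unadjusted p under 0.05, where 33.9% of all kept probes had one. Chd4, Mta2, Mta3 and Hdac1 differed by between -0.06 and 0.17 over the same days. From day 9 to day 12 in control cultures 0 of the 8 genes were called, where 4.16% of all kept probes were, and limma counted 0 at an unadjusted p under 0.05, where 20.1% of all kept probes had one. Arrays of these days did not overlap for 0 of the 8 genes, where 18.4% of all kept probes did not. Again 0 of 8 were called when the day 9 control b array was left out, and limma then counted 2 at an unadjusted p under 0.05.

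In CHD5 shRNA cultures Chd3 also fell from day 5 to day 9, by 0.61 (SE 0.12, 34.7% less, adjusted p = 0.0041), without overlap and in all 31 alternatives tried. It was the 1 gene of 8 called, where 9.33% of all kept probes were called and 4.72% were called lower. Hdac2 went from 9.16, 9.26 and 9.25 to 8.81, 9.04 and 8.50, a difference of -0.44 (adjusted p = 0.0942), and Mta1 had a difference of -0.44 (adjusted p = 0.260). With the day 9 control b array left out, Hdac2 and Mta1 passed as well, with adjusted p of 0.0342 and 0.0115, which makes 3 of 8 genes called. Arrays of the days did not overlap for 4 of the 8 genes, where 43.8% of all kept probes did not, and limma counted 2 genes at an unadjusted p under 0.05, where 24.1% of all kept probes had one.

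In the CHD5 shRNA cultures from day 9 to day 12, 0 of 8 genes were called, where 1.37% of all kept probes were. Limma counted 1 gene at an unadjusted p under 0.05, Chd3, with 7.86, 7.73 and 8.06 at day 9 and 8.26, 8.28 and 8.09 at day 12, a difference of 0.33 (SE 0.12, adjusted p = 0.304). Among all kept probes 9.82% had such a p. Arrays of these days did not overlap for 3 of the 8 genes, where 33.0% of all kept probes did not. From day 5 to day 12, 0 of 8 were called, where 17.0% of all kept probes were, and limma counted 2 at an unadjusted p under 0.05, where 28.7% of all kept probes had one. Arrays of these days did not overlap for 3 of the 8 genes, where 47.6% of all kept probes did not. The 2 were Chd3, with a difference of -0.28 (adjusted p = 0.133), and Hdac2, with a difference of -0.38 (adjusted p = 0.118). With the day 9 control b array left out, 2 of 8 genes passed, Chd3 at an adjusted p of 0.0454 and Mta1 at 0.0087. The changes over time in the 2 arms were not shown to differ, as the tests of the change of the difference above called 0 genes.

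**Figure D3:**
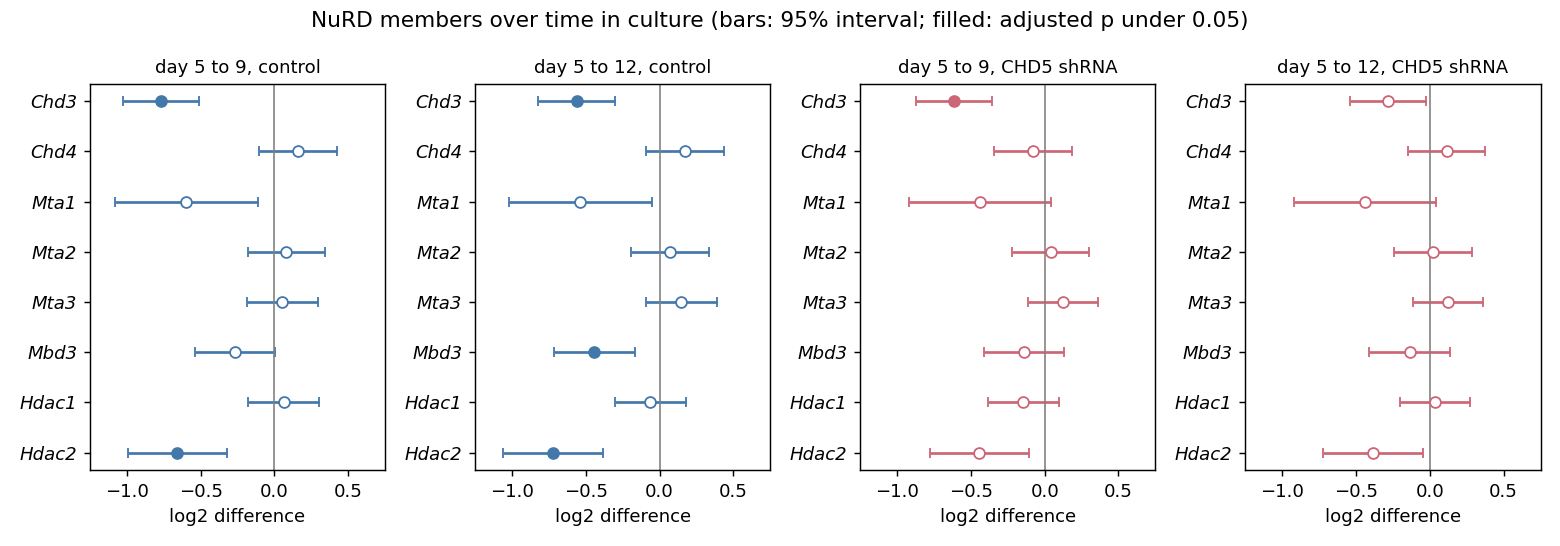
Difference in normalized log2 signal between days (x axis, later minus earlier) for each of the 8 genes (y axis), from day 5 to 9 and from day 5 to 12, in control cultures (blue) and CHD5 shRNA cultures (red), with bars for the 95% interval and filled points for genes called at an adjusted p under 0.05. Filled points are Chd3 and Hdac2 in control from day 5 to 9, Chd3, Hdac2 and Mbd3 in control from day 5 to 12, and Chd3 in CHD5 shRNA cultures from day 5 to 9.

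Markers of glia moved over the same days and between the arms. Of all kept probes, 23.6% were called from day 5 to 12 in control and 17.0% in CHD5 shRNA cultures. After CHD5 shRNA, 0.171%, 5.89% and 5.47% of them were called at days 5, 9 and 12. Of 10 listed astrocyte markers 8 had a probe. Marker signals were summed without normalization, so a sum also follows the mean signal of its array. The summed signal of the astrocyte markers ranged from 38545 to 58661 at day 5 and from 82591 to 88587 at day 12 in control cultures. In CHD5 shRNA cultures it ranged from 33241 to 50556 at day 5 and from 59420 to 66300 at day 12. From day 5 to day 12, 7 of the 8 rose in control and 7 of the 8 in CHD5 shRNA cultures, each called at an adjusted p under 0.05. After CHD5 shRNA all 8 were lower in the mean at day 9 and 7 of 8 at day 12, of which 5 were called lower at each day, with median differences of -1.14 and -0.68. Of the oligodendrocyte lineage markers kept, 8 of 9 were called higher from day 5 to 12 in control and 7 of 9 in CHD5 shRNA cultures. Between the arms, 7 of the 9 were lower in the mean after CHD5 shRNA at day 9 and all 9 at day 12. Of these, 2 were called lower at each day. Of 11 neuron markers, all detected on all arrays, 1 was called lower and 2 were called higher from day 5 to 12 in control cultures, with a median difference of 0.13. The neuron markers had a median difference after CHD5 shRNA of 0.13 at day 9 and 0.16 at day 12. At each of these days 7 were higher in the mean and 4 lower, with 1 called higher. The counts of neuron markers called are near the shares of all kept probes called. Among excitatory neuron markers, Slc17a6, a vesicular glutamate transporter, and the transcription factor Neurod6 were called lower over these days in control cultures, with differences of -0.68 and -0.70. Slc17a7, the other such transporter, was called higher, with 0.49, but was detected on only 4 of 18 arrays. After CHD5 shRNA Slc17a6 had a difference of 0.58 at day 9. Of the 4 excitatory neuron markers kept, 3 were higher in the mean at that day and 1 was lower, with 2 called higher. At day 12, 2 were higher and 2 lower, with 1 called higher. The summed signal of the excitatory neuron markers at day 9, also not normalized, ranged from 801 to 7466 in control and from 4899 to 5829 in CHD5 shRNA cultures. Of 3 fibroblast markers kept, 2 were called lower after CHD5 shRNA at day 9 and 2 at day 12. Interneuron markers had 0 of 4 called after CHD5 shRNA, and proliferation markers 0 of 9, at each day. Microglia and endothelial markers were mostly undetected (5 of 7 and 3 of 5 on no array). The day 9 marker values include the day 9 control b array and are not given without it. The part of these cell types in the values of the 8 genes was not tested, and in such mixed cultures fewer cells of a type and less RNA per cell cannot be told apart.

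The other genes of the pathway were taken from a list of 34 genes, of which 27 had a probe and 21 were kept. After CHD5 shRNA 0 of the 21 were called at day 5, 1 at day 9 and 0 at day 12, beside the 0.171%, 5.89% and 5.47% of all kept probes given above. The share at day 9 is near that background. The 1 was Gatad2a, whose protein links the methyl-binding subunit of NuRD to the ATPase. Gatad2a had 2 probes under its symbol, of which only the one with the higher mean signal is given here. Its levels at day 9 were 8.24, 7.98 and 8.29 in control and 8.55, 8.39 and 8.68 in CHD5 shRNA cultures, so all 3 treated arrays were higher. The difference was 0.37 (SE 0.10, adjusted p = 0.0445), and leaving out the day 9 control b array, which gave the 7.98, changed it to 0.28 with an adjusted p of 0.0704. The call was lost in 17 of the 29 alternatives in which the adjusted p was recomputed, where differences ran from 0.26 to 0.44 and adjusted p from 0.0232 to 0.419. It was lost with quantile normalization (0.0932), neqc (0.114), median centring (0.231), no detection filter (0.0915), array weights (0.251) and only the arrays compared (0.419), and in 11 of 18 fits that left out 1 array. At day 12 the levels were 8.55, 8.33 and 8.30 against 8.64, 8.70 and 8.63, a difference of 0.26 (adjusted p = 0.187), called in 3 of 29 alternatives, which were array weights (adjusted p = 0.0005), only the arrays compared (0.0190) and leaving out the day 9 control b array (0.0458). At day 5 the difference was -0.08.

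Gatad2b, the paralog of Gatad2a, differed by -0.14, 0.11 and -0.17 after CHD5 shRNA and was not called, with a day 9 value of 0.00044 once the day 9 control b array was left out. It fell with time in both arms, by 0.59 in control from day 5 to 12 (adjusted p = 0.0015) and by 0.61 in CHD5 shRNA cultures (adjusted p = 0.0016). Its day 5 levels were 8.13, 8.39 and 8.27 in control and 8.19, 8.25 and 7.91 in CHD5 shRNA cultures, and its day 12 levels were 7.85, 7.62 and 7.55 and then 7.49, 7.48 and 7.55, with no overlap between the days. The arms at day 12 did not overlap either, narrowly, with a lowest control of 7.554 and a highest CHD5 shRNA level of 7.546. Of all kept probes 38.2% did not overlap there. Rbbp7, a histone-binding relative of Rbbp4, was detected on 10 of 18 arrays and differed by -0.31, -0.27 and -0.05 after CHD5 shRNA, with no call, the day 9 value being -0.15 with that array left out.

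Rbbp4 itself has no probe under its symbol. A probe described as similar to retinoblastoma binding protein 4 (LOC685491) lay on chromosome 5, which carries Rbbp4 in RefSeq (GRCr8), and was detected on 18 of 18 arrays. RefSeq lists copies of Rbbp4 on other chromosomes, so which of them the probe reads is not settled. It is outside the rule by which the genes were chosen and was looked at after its description was read. Its levels at day 9 were 12.20, 12.97 and 12.23 in control and 12.08, 12.13 and 11.98 in CHD5 shRNA cultures, and at day 12 they were 12.67, 12.30 and 12.40 against 12.10, 12.12 and 12.15. Neither day overlapped, and the treated arrays were lower. The differences were -0.05 at day 5, -0.40 at day 9 (adjusted p = 0.140) and -0.33 at day 12 (adjusted p = 0.295), and none passed. The 12.97 is that of the day 9 control b array, and with it left out the day 9 difference was -0.16 (adjusted p = 0.335), while that of day 12 was -0.34 and passed (adjusted p = 0.0168). Another probe described as similar to this protein, RGD1563620_predicted, lay on chromosome 2 and is Rbbp4l1 in RefSeq. It was also outside the rule and detected on 18 of 18 arrays. With all arrays in the fit, its differences were -0.29, -0.34 and -0.26 at days 5, 9 and 12. None passed (adjusted p = 0.999, 0.319 and 0.590 by limma). Its arms overlapped at days 5 and 9 but not at day 12, where 38.2% of all kept probes did not overlap.

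**Figure D4:**
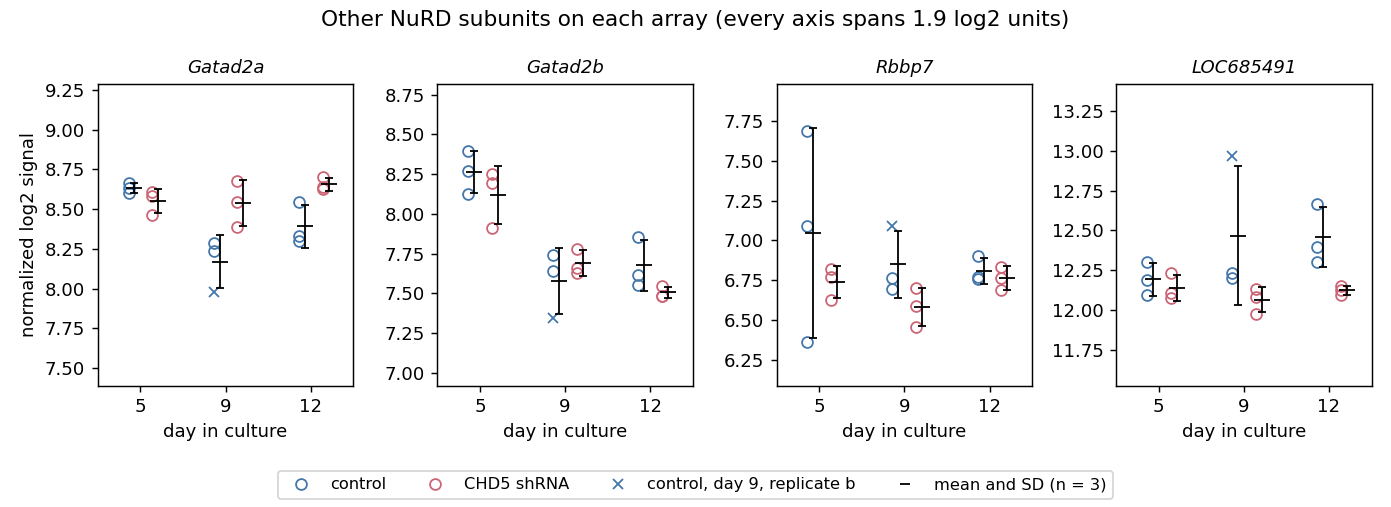
Normalized log2 signal (y axis, 1.9 log2 units in every panel) of Gatad2a, Gatad2b, Rbbp7 and the Rbbp4-like probe LOC685491 at days 5, 9 and 12 (x axis), with control arrays in blue, CHD5 shRNA arrays in red, the apart-standing day 9 control array as a cross, and the mean and SD of 3 arrays in black. At day 9 and day 12 Gatad2a is higher and LOC685491 lower in all CHD5 shRNA arrays, and Gatad2b is lower at days 9 and 12 than at day 5 in both arms.

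Over time the whole pathway list held 4 genes called lower and 1 called higher from day 5 to 12 in control cultures, of 21, a share close to the 23.6% of all kept probes called. The 4 were Gatad2b, Cdk2ap1, a small NuRD subunit, Ncor1, a corepressor of nuclear receptors, and Bcl11b, a neuronal zinc-finger factor that binds NuRD, and the 1 was Hdac8, a further class I deacetylase. Their median difference, with the other members of the list, was -0.15 against -0.02 over all kept probes. In CHD5 shRNA cultures, where 17.0% of all kept probes were called, 3 of 21 were called lower, Gatad2b, Cdk2ap1 and Chd8, the last a CHD protein outside NuRD with a difference of -0.34 (adjusted p = 0.0439). When the day 9 control b array was left out, 9 and 7 of the pathway genes were called over these days in the 2 arms, beside 39.0% and 32.2% of all probes kept then.

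The genes whose profile over the 18 arrays was most like that of 3 of the genes are given as a description, among 6436 probes detected on all arrays. For Chd3 they were Zbed4_predicted (Pearson r = 0.94), Bat2 (0.93) and LOC497770 (0.93). For Chd4 they were RGD1310376_predicted (0.81), Txndc5_predicted (0.78) and MGC112727 (0.75), and for Hdac2 they were Eprs (0.94), Sh3glb1 (0.92) and Ddx49_predicted (0.90). All points of a correlation share the arrays, the normalization and the days, and no p is given.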

How the data were processed

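RNA of primary rat cortical neurons was hybridised to Illumina Sentrix Rat Ref-12 arrays, 3 replicates of CHD5 shRNA and 3 of control lentivirus at days 5, 9 and 12. The deposited signal intensity of a probe is the mean over its beads, extracted by the authors with GenomeStudio 1.1.1 without normalization or background subtraction. The deposited detection p-value was computed by the authors against negative control beads. The 6 replicate a arrays were measured a second time, which was used only in an alternative. The genome build of the probe coordinates is not given in the sources used here.

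Probes with a detection p at or below 0.02 on at least 1 of 18 arrays were kept (11079 of 22523, of which 9720 had a current RefSeq symbol by Entrez number). Log2 signals were Z-transformed per array and rescaled to the mean SD of 1.79, as in the study's supplementary methods. limma 3.58.1 in R 4.3.3 (lmFit, eBayes) was fitted to all 6 groups of 3 arrays with 12 residual degrees of freedom, plus 5.72 from the prior, with Benjamini-Hochberg adjustment within a comparison and a limit of 0.05. An exact permutation test of 3 against 3 arrays cannot go below 0.1. Arrays, not beads, limit the precision. The fit was tested on simulated data. Of several probes of a gene, the one with the highest mean signal was taken. Named are all 10 listed genes, Gatad2b and Rbbp7, other pathway genes called after CHD5 shRNA, and for Chd3, Chd4 and Hdac2 the 3 genes most alike. Pathway genes called only over time (Cdk2ap1, Ncor1, Bcl11b, Hdac8, Chd8), LOC685491 and RGD1563620_predicted were named after their values were seen. One marker gene is not reported here. The genes and lists were chosen with earlier results of these data known.

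Pairing by replicate letter was checked by the correlation, between the arms, of deviations from group means. At day 5 the correlations were 0.27, 0.17 and 0.38, at day 9 they were 0.43, 0.15 and -0.20, and at day 12 they were 0.05, 0.15 and 0.01. Arrays of unlike letters were not compared, so these values do not settle whether the letters pair. The main fit holds no replicate block.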

Additional observations from a re-analysis of the deposited data

How the results depend on the processing

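The counts of genes called after CHD5 shRNA at days 5, 9 and 12 and for the change between days stayed 0 under all alternatives run, 31 at each day and 30 for each change. The replicate block changed no member count in any comparison: with the letter within a day as block, 0 of 8 genes were called at day 5, as without it, and over all probes 7 were called in place of 19. Called genes kept their direction in all alternatives, and of 2952 member values 150 had another sign, none of them called with the main settings.

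Over time, member counts moved as follows. From day 5 to 9 in control cultures the count was 2, but 1 with quantile normalization, with neqc, with array weights and by the Z-ratio criteria of the study's methods, and 0 with only the arrays compared. In control cultures from day 5 to 12 it was 3, but 1 with a fold change of at least 1.5 and by the methods' Z-ratio criteria, 2 with no detection filter, and 4, Mta1 added, with quantile normalization, neqc, only the arrays compared or array weights. In CHD5 shRNA cultures the count from day 5 to 9 was 1, but 3 with only the arrays compared or array weights and 2 by the methods' Z-ratio criteria. There it was 0 from day 9 to 12, but 1 with only the arrays compared, 2 with array weights and 1 by the methods' Z-ratio criteria. It was 0 there from day 5 to 12, but 3 with only the arrays compared or array weights. The cause was not tested.

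Leaving out each array in turn gave 2 to 4 genes from day 5 to 9 in control (3 without day 9 control replicate a, 4 without c), 2 to 4 from day 5 to 12 in control (2 without day 12 control replicate a or day 5 control replicate c), 1 to 3 from day 5 to 9 in CHD5 shRNA and 0 to 2 from day 5 to 12 in CHD5 shRNA cultures. With day 5 control replicate a or c left out, both CHD5 shRNA counts gained Hdac2, to 2 and 1. Chd4 from day 5 to 9 in control turned from 0.16 to -0.31 with median centring (adjusted p = 0.345). The array weights did not fully converge. The next-highest probe could be tried for Hdac1 only and was not run, since its other probes were detected on no array.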
